A study of Mus musculus with 12 samples.

Results

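The cell cycle and DNA replication genes described here are 37 genes that dividing cells use, 16 of them at work around S phase and 21 in G2 and mitosis. They were listed by name with earlier results of these data known, and all 37 were found among the 47643 genes of the count table. All 37 passed the filter on low counts, which left 17602 genes tested. Expression was measured by bulk RNA-seq of mouse intestine in 12 libraries, 3 in each of the groups KO HFD, WT HFD, KO chow and WT chow. KO stands for PparaΔIE, mice whose gut epithelium lacks Ppara as the allele name is usually read, and WT for Pparafl/fl, the floxed genotype in which Ppara can be cut out but is intact. All groups were male C57BL/6 mice of 7 to 8 weeks, and the diet, chow or a high-fat diet labelled 60% HFD, was given for 10 days. The labels do not name the recombinase line, the deleted exons or the segment of intestine, and WT here means floxed mice, not mice with unmodified alleles. By the usual reading of the allele name, the KO removes the gene in epithelium, and the muscle, immune and vessel cells of the tissue would keep it. Bulk RNA does not show in which cells the gene was lost. Nothing in the labels ties each library to its own mouse, so the spread between samples of a group may be technical. The p-values rest on that spread, estimated jointly over the 4 groups.

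Ppara encodes PPARA, a nuclear receptor for fatty acids, and checks the genotype labels. It measured 11.4, 11.1 and 17.3 CPM (counts scaled to library size after TMM) in KO HFD and 39.3, 36.6 and 33.7 CPM in WT HFD. On chow it measured 8.42, 15.6 and 13 CPM in KO and 19.2, 18.1 and 22 CPM in WT. Every KO library lay below every WT library on the same diet, by a log2 fold change of -1.46 under HFD (SE 0.21, adjusted p = 0.031) and -0.68 under chow (adjusted p = 0.25). Adjusted p-values throughout are those of edgeR's quasi-likelihood test over all 17602 genes, with the Benjamini-Hochberg adjustment and a threshold of 0.05. Library totals ran from 33621040 to 53959405 expected counts. Summed over 5 pan-epithelial genes, the libraries held 7610 to 11500 CPM, while 6 pancreas genes summed to at most 3.2 CPM. The 4 distal ileum markers summed to 5930 to 9340 CPM, the 4 colon markers to 4150 to 6690 CPM and the 6 proximal intestine markers to 121 to 331 CPM. The WT chow libraries varied less than the others, with a biological coefficient of variation of 0.0583 against 0.140 in KO HFD, 0.146 in WT HFD and 0.152 in KO chow. The fit used a spread shared by all groups, so the p-values do not reflect this inequality. Among 1125 well-counted genes that differed over 1.5-fold between KO chow 1 and 2, 96.5% lay between those libraries in KO chow 3. The same share was 88.5% of 113 genes for WT chow 1 and 30.0% to 77.6% for the other 10 libraries. Counts of called genes are therefore also given without WT chow 1 and KO chow 3.

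The intestinal epithelium renews itself from dividing cells of the crypts, and lymphocytes in the tissue divide as well. In S phase, E2F factors switch on cyclin E and the replication machinery: the MCM ring unwinds DNA, CDC45 and the GINS proteins complete the helicase, and PCNA clamps the polymerase to its template. Later, the MuvB complex with B-MYB and FOXM1 turns on genes of mitosis, often through a short element named the cell cycle genes homology region (CHR), near CCAAT boxes bound by NF-Y. In resting cells the DREAM complex represses genes of both phases. In bulk tissue, fewer dividing cells and less RNA per dividing cell cannot be told apart.

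The promoters of 5 members show these elements, 3 of mitosis genes and 2 of S phase genes, picked to set the classes side by side. Each runs from 250 bases before the transcript start that the RefSeq promoter table gives to 50 after it, 5′ to 3′ on the gene's strand, on GRCm38.p6. In the mitosis genes capitals mark CHR (TTTGAA or TTCGAA) and CCAAT, on either strand. In the S phase genes they mark E2F words (TTTGGCGC, TTTCCCGC, TTTGGCGG, TTTCGCGC and TTTGCCGC), on either strand. The marking thus differs by class and leaves some words unmarked. Mcm5 and Mcm6 each also hold 2 or more CCAAT words, and Cdk1 also holds an E2F word. Ccnb2 lies at chr9:70421505-70421804 on the minus strand, Cdk1 at chr10:69352863-69353162 on the minus strand and Plk1 at chr7:122159185-122159484 on the plus strand.
Ccnb2: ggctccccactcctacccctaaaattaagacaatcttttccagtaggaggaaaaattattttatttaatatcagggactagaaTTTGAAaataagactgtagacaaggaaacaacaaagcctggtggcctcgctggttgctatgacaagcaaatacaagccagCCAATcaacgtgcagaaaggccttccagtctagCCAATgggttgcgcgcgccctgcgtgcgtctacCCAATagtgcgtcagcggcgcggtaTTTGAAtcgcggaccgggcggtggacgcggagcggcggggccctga
Cdk1: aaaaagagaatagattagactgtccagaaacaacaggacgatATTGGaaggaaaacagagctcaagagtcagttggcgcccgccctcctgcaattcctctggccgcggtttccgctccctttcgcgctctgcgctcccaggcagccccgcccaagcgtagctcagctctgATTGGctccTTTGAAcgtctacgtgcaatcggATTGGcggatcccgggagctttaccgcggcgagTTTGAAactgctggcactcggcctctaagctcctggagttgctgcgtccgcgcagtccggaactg
Plk1: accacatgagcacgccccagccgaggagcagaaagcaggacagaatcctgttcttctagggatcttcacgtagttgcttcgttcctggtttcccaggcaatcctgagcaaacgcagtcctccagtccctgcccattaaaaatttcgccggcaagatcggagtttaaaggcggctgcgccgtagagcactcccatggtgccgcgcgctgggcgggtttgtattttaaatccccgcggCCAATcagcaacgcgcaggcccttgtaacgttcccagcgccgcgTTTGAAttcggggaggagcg
Mcm5 lies at chr8:75109259-75109558 on the plus strand and Mcm6 at chr1:128359656-128359955 on the minus strand.
Mcm5: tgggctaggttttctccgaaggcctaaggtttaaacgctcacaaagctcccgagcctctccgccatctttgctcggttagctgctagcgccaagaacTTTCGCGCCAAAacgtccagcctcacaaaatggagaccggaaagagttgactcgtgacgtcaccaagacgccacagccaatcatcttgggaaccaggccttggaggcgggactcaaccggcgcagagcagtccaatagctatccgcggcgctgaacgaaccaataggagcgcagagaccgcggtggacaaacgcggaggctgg
Mcm6: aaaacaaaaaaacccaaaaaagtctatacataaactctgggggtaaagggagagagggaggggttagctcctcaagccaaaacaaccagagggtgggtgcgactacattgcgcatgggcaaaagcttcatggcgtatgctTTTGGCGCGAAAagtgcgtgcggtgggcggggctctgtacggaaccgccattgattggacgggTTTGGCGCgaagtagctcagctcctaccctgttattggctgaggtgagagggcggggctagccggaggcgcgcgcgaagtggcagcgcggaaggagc
Ccnb2 has 3 CCAAT words before its start, at -87, -54 and -21. It has a CHR word at -167 and another that begins at base 5 after the start. Plk1 has 1 CCAAT at -14 and 1 CHR word at 31. In Mcm5 the 2 E2F words, on opposite strands, overlap each other between -153 and -142, and Mcm6 has an overlapping pair from -110 to -99 and another word at -47.

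Over the members, the classes differed in the words their promoters hold. The promoter table held 28 of the 37, and a gene with more than 1 window counted if any of them had the word. A CHR word was in 12 of 16 mitosis promoters (75%), in 3 of 12 S phase promoters (25%) and in 20.2% of 17491 promoters of protein-coding genes. CCAAT was in 14 of 16 (87.5%), 9 of 12 (75%) and 42.3%. An E2F word was in 1 of 16 mitosis promoters (6.25%) and in 4 of 12 S phase promoters (33.3%: Mcm3, Mcm5, Mcm6 and Mcm7), against 3.96% of all. A match of letters is a description and not a binding site. For 4 of the 28 members (Aurka, E2f1, Ect2 and Mcm7) every transcript start given lies over 100 bases inside the gene as RefSeq annotates it. A count of only those windows whose transcript start lies within 100 bases of the gene's 5′ end was chosen after seeing the data. In these windows a CHR word was in 10 of 14 mitosis members (71.4%), 2 of 10 S phase members (20%) and 19.3% of 13536 protein-coding genes. An E2F word was in 1 of 14 (7.14%), 3 of 10 (30%) and 3.38%, and CCAAT in 12 of 14 (85.7%), 8 of 10 (80%) and 40.6%. The 12 mitosis members with a CHR word had a median log2 fold change of -0.36 for WT HFD against WT chow, and the 4 without one had -0.43.

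Divided by the exon length of the gene model, the most abundant members were Pcna at 17.7 CPM per kb averaged over groups, Mki67, the proliferation antigen, at 15.9, and Top2a, the topoisomerase that untangles chromosomes, at 10.1. The least abundant were Gins1 at 1.03, E2f1 at 1.23 and Ccne1 at 1.34 CPM per kb. The 6 MCM genes, whose products form a ring with 1 copy of each, spread from 2.59 (Mcm2) and 3.76 (Mcm3) to 5.34 (Mcm7) and 6.69 (Mcm6) CPM per kb. These levels divide by all exons of a gene model, which overstates length where long forms are little used. Raw counts behind them ran from 38 for Gins1 in its lowest library upward. Reads of Ccnb2 may be shared with a pseudogene copy that held up to 15.4% of its count. Pseudogenes of Pcna and Ccnb1 held at most 1.71% and 1.39%.

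**Figure D1:**
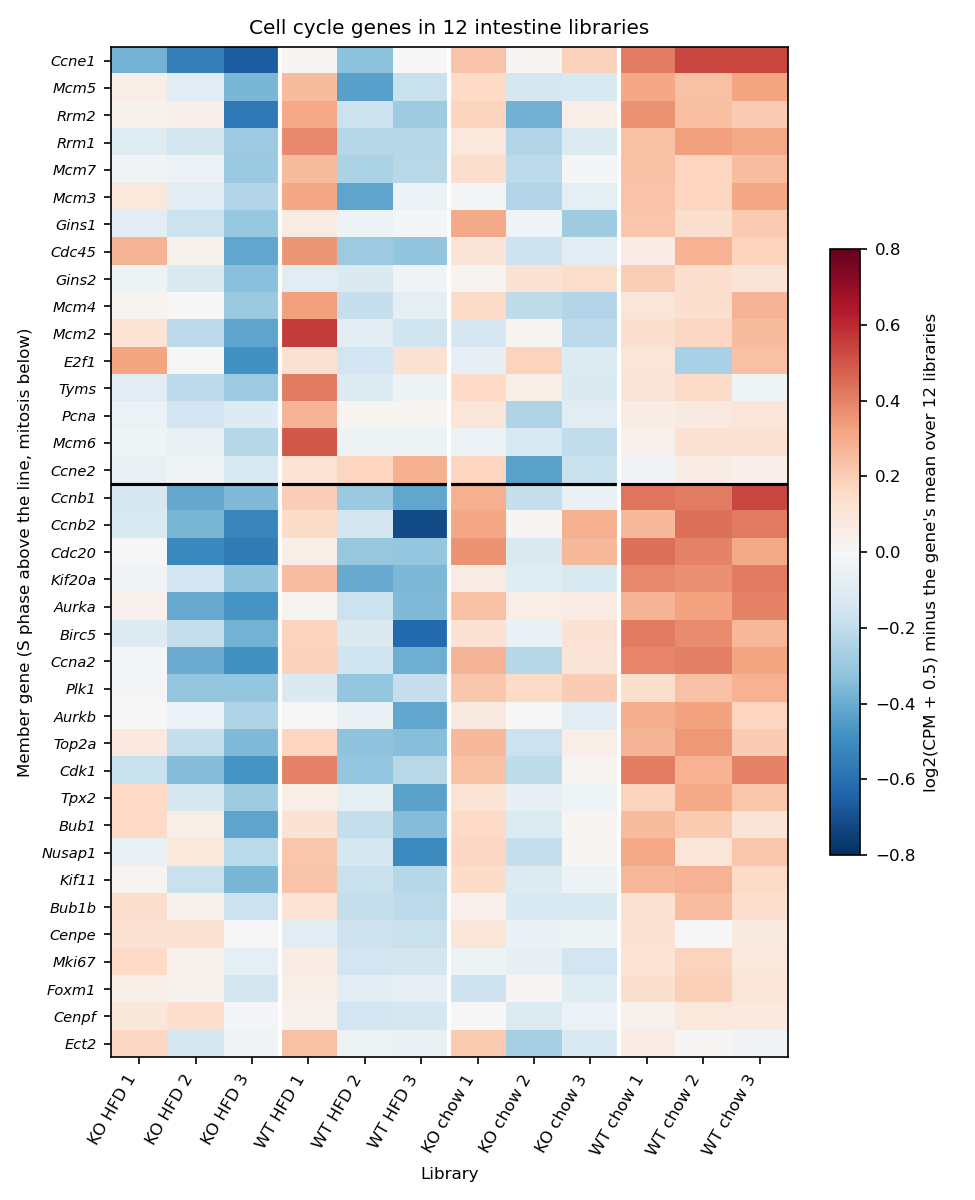
Each row is a gene and each column a library, coloured by log2(CPM + 0.5) minus the gene's mean over the 12 libraries, with S phase genes above the black line and mitosis genes below it. The WT chow columns are mostly red in both classes, and WT HFD 1 is red in most S phase rows.

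In WT mice the high-fat diet went with lower mitosis genes. Of 21 mitosis members 8 fell and 0 rose, and of 16 S phase members 1 fell and 0 rose, so that 9 of 37 fell where 6.57% of all tested genes fell and 6.80% rose. The 8 were Ccnb1, Ccnb2, Cdc20, Aurka, Aurkb, Plk1, Birc5 and Kif20a. Their products drive entry into mitosis, spindle assembly, chromosome separation and the final split of the cell. The median log2 fold change was -0.39 over the mitosis members, -0.23 over the S phase members and 0.01 over all tested genes. The direction was negative in 20 of 21 mitosis and 12 of 16 S phase members, and in 49.1% of all tested genes. Groups did not overlap, with WT HFD lower, for 16 mitosis and 3 S phase members (18.6% of all genes), and with WT HFD higher for 1 member, Ccne2 (19.3% of all genes). DESeq2 called 12 members lower (8.29% of all genes).

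Cyclin B genes encode the partner that activates CDK1 at the start of mitosis. Ccnb1 (mm10, chromosome 13, 100778650 to 100786570) had 13.1, 9.18 and 8.4 CPM in WT HFD and 15.5, 15.3 and 16.7 CPM in WT chow (log2 fold change -0.63, SE 0.16, adjusted p = 0.02). Ccnb2 had 12.6, 10.2 and 6.71 CPM in WT HFD and 13.7, 15.6 and 15.3 CPM in WT chow (log2 fold change -0.59, SE 0.18, adjusted p = 0.047). For these cyclins the WT HFD values lay below all WT chow values, and WT HFD 1 was the highest of its group. Cdk1 itself had 13.4, 8.04 and 8.54 CPM in WT HFD and 13.5, 12.3 and 13.4 CPM in WT chow (log2 fold change -0.39, SE 0.17, adjusted p = 0.15), and WT HFD 1 lay within the range of chow. Ccna2, cyclin A2 of S phase and G2, had a log2 fold change of -0.48 (adjusted p = 0.072).

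The kinase genes Plk1, Aurka and Aurkb fell. Plk1 (chromosome 7, 122159439 to 122169873), the kinase that promotes mitotic entry and spindle formation, had 12.3, 10.7 and 11.7 CPM in WT HFD and 14.8, 15.8 and 16.3 CPM in WT chow. That was the smallest p of all members (log2 fold change -0.44, SE 0.10, adjusted p = 0.01), and all 3 WT HFD values lay below WT chow. Aurka, the kinase of centrosomes and spindle poles, had 9.07, 7.87 and 6.87 CPM in WT HFD and 10.9, 11.3 and 11.9 CPM in WT chow (log2 fold change -0.52, SE 0.14, adjusted p = 0.025). Aurkb and Birc5, partners in the chromosomal passenger complex, fell by 0.43 and 0.52 on the log2 scale (adjusted p = 0.03 and 0.041). Bub1 and Bub1b, of the checkpoint that holds chromosome separation until all kinetochores attach, had log2 fold changes of -0.34 and -0.26 (adjusted p = 0.17 and 0.11).

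Of the genes of chromosome separation and division, Cdc20, the activator of the anaphase ubiquitin ligase, had 17.2, 13.4 and 13.3 CPM in WT HFD and 22.7, 22 and 20.6 CPM in WT chow (log2 fold change -0.57, SE 0.16, adjusted p = 0.034). Kif20a, a motor of the late spindle, had 11.4, 7.1 and 7.31 CPM in WT HFD and 12.6, 12.4 and 12.9 CPM in WT chow (log2 fold change -0.55, SE 0.15, adjusted p = 0.027). Neither gene's groups overlapped. Tpx2, Kif11 and Nusap1 of the spindle had log2 fold changes of -0.39, -0.28 and -0.33, Top2a had -0.42 and the cytokinesis factor gene Ect2 had 0.04, and none of these passed (adjusted p from 0.061 to 0.88). The kinetochore genes Cenpe and Cenpf had -0.21 and -0.15, and Foxm1, which encodes the factor that turns on mitosis genes, had -0.18, also without passing (adjusted p from 0.073 to 0.19). Mki67 had 166, 143 and 144 CPM in WT HFD and 172, 180.0 and 169 CPM in WT chow (log2 fold change -0.20, SE 0.08, adjusted p = 0.11), so its groups did not overlap although it did not pass.

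Among S phase members, Ccne1 stood apart. It encodes cyclin E1, which with CDK2 starts S phase, and lies on chromosome 7 from 38097984 to 38107534. It had 3.45, 2.63 and 3.44 CPM in WT HFD and 4.72, 5.19 and 5.19 CPM in WT chow (log2 fold change -0.66, SE 0.15, adjusted p = 0.011), a fold of 0.631. Ccne2, which encodes cyclin E2 with the same partner, had a log2 fold change of 0.17 and did not pass (adjusted p = 0.39). Every WT HFD value of Ccne2 was above every WT chow value.

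The replication machinery did not pass. Gins2, a GINS subunit, had 17.5, 17.1 and 18.3 CPM in WT HFD and 21.3, 20.4 and 20.0 CPM in WT chow (log2 fold change -0.22, SE 0.09, adjusted p = 0.099), without overlap. Mcm5 had 24.4, 14.9 and 17.9 CPM in WT HFD and 25.3, 24 and 25.4 CPM in WT chow (log2 fold change -0.39, SE 0.16, adjusted p = 0.12), with WT HFD 1 within the range of chow. Pcna had 51.1, 42.7 and 42.7 CPM in WT HFD and 44, 44.3 and 45.2 CPM in WT chow (log2 fold change 0.03, SE 0.09), and the groups overlapped. In Pcna and Mcm5 WT HFD 1 was the highest of its group. E2f1 had 4.23, 3.4 and 4.23 CPM in WT HFD and 4.15, 3.13 and 4.6 CPM in WT chow (log2 fold change -0.01, SE 0.21), with WT chow 2 the lowest of the 6. Mcm3 and Mcm7 had log2 fold changes of -0.26 and -0.28, Mcm4 -0.14, Mcm2 -0.04 and Mcm6 0.07. The nucleotide synthesis genes Rrm1, Rrm2 and Tyms had -0.29, -0.30 and 0.03, and Cdc45 and Gins1 both had -0.24.

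**Figure D2:**
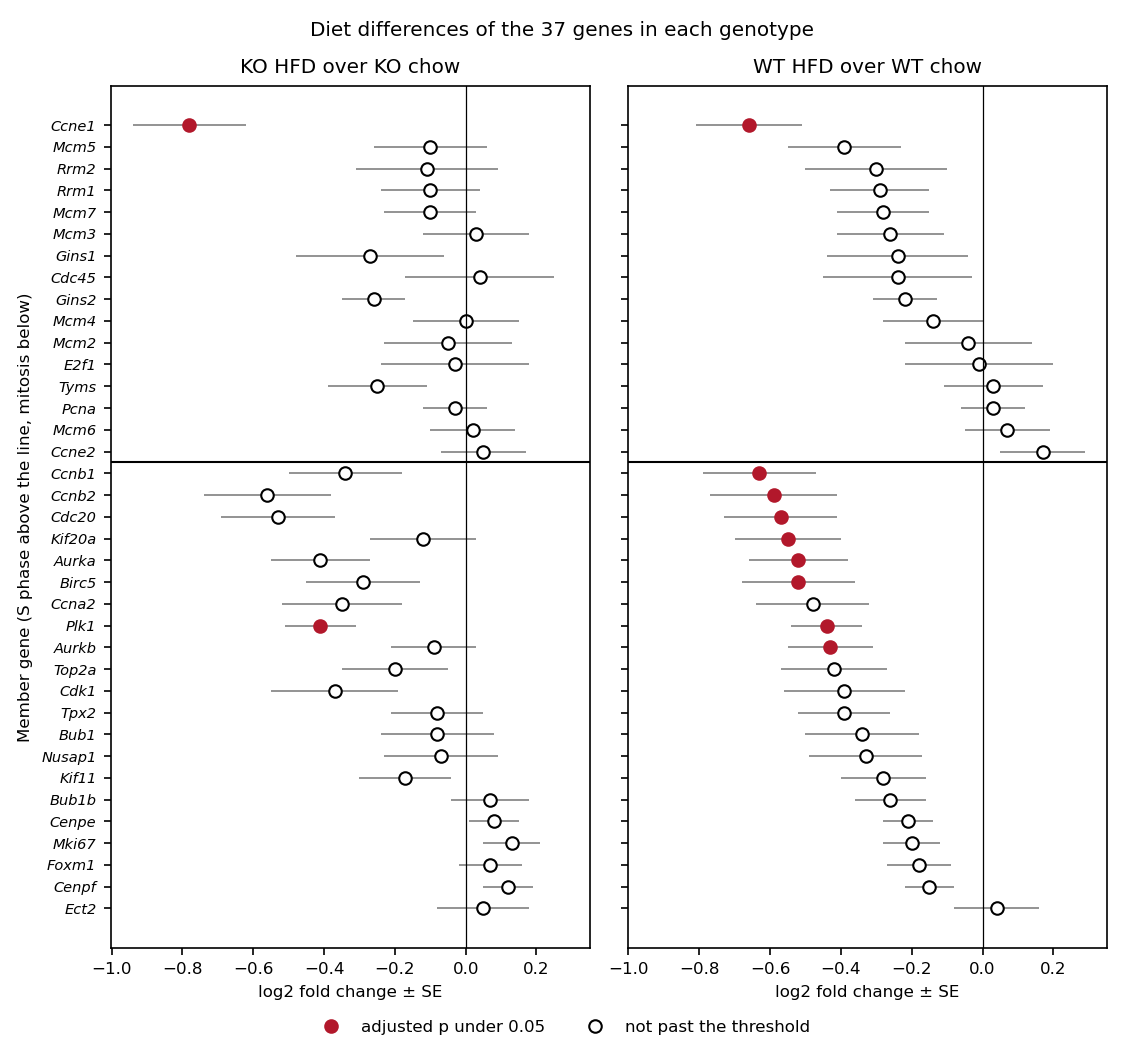
Points are log2 fold changes with SE bars (edgeR) for KO HFD over KO chow on the left and WT HFD over WT chow on the right. Filled points passed an adjusted p of 0.05: 2 genes in KO and 9 in WT.

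The count in WT rested on single libraries. It was 21 without WT HFD 1, 2 without WT HFD 2, WT HFD 3, WT chow 1 or WT chow 2, and 0 without WT chow 3, while leaving out any of the 6 KO libraries gave 7 to 11. It was 0 without both WT chow 1 and KO chow 3. The log2 fold changes of the 9 genes stayed negative in each of these fits. Of 12 fits that left out 1 library, Plk1 was called in 11, Ccne1 in 10 and Aurkb in 8. Ccnb1, Cdc20, Aurka and Kif20a were each called in 7, Birc5 in 5 and Ccnb2 in 4. In WT HFD 1, 10 of 16 S phase members lay above all WT chow libraries and 16 of 21 mitosis members below them. In WT HFD 2 and in WT HFD 3, 14 of 16 S phase and 21 of 21 mitosis members lay below all WT chow libraries.

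**Figure D3:**
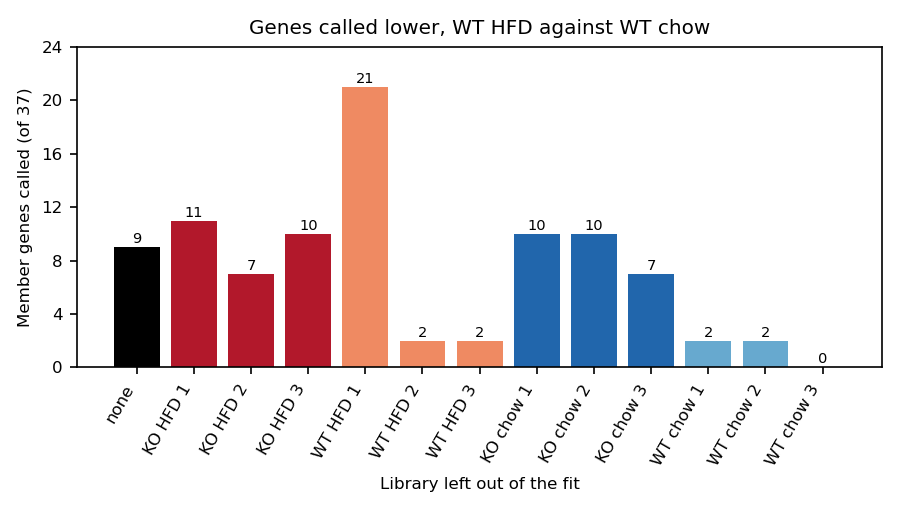
Bars give the number of the 37 genes called for WT HFD against WT chow when the library on the x axis is left out of the fit, all of them lower. The bar without WT HFD 1 reaches 21 and the bar without WT chow 3 is at 0, against 9 with all libraries.

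The mean of the centred log2(CPM + 0.5) over a class gives each library a score. The S phase score was 0.260, -0.167 and -0.075 in WT HFD and 0.171, 0.166 and 0.213 in WT chow, so WT HFD 1 stood above WT chow and the others below. The mitosis score was 0.118, -0.190 and -0.317 in WT HFD and 0.252, 0.261 and 0.229 in WT chow, without overlap. The S phase score minus the mitosis score was 0.142, 0.022 and 0.242 in WT HFD and -0.081, -0.095 and -0.017 in WT chow. In KO the same difference was -0.025, 0.046 and -0.045 on HFD and -0.053, -0.036 and -0.100 on chow. The WT groups did not overlap in it and the KO groups did.

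**Figure D4:**
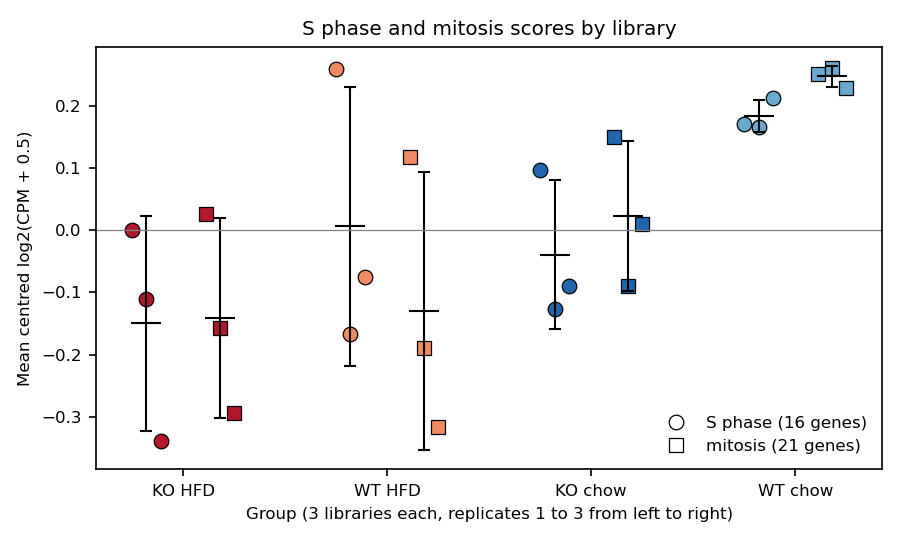
Circles are S phase scores and squares mitosis scores of each library, with the mean and SD of 3 libraries per group. S phase scores of WT chow lie between 0.166 and 0.213, and WT HFD 1, at 0.260, is the only other library above them.

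Other genes of the same processes were read as wider lists. Of 52 other mitosis genes 18 fell in WT HFD and 0 rose, against 6.57% of all tested genes that fell (median log2 fold change -0.37), among them Kif4, a chromosome-bound motor (-0.52), and Cdca3, which promotes mitotic entry (-0.60). Of 41 other replication genes 2 fell and 0 rose (median -0.24), a share below that of all tested genes. These were the replication initiation gene Mcm10 (-0.33) and Wdhd1, which links helicase and polymerase (-0.37), and Wdhd1 was called in 9 of 12 fits that left out 1 library. Of 12 G1 drivers Ccnd1 fell (-0.76), and it encodes cyclin D1, which opens the way into S phase with CDK4 or CDK6. Cdk6 had a log2 fold change of 0.52 without passing (adjusted p = 0.056). Of 22 inhibitors and repressors 4 fell and 0 rose (Cdkn2a, Cdkn2b, Cdkn2d and E2f8). The CDK inhibitor genes Cdkn2a and Cdkn2d had log2 fold changes of -2.55 and -0.48, Cdkn2d was called in 7 of 12 fits that left out 1 library, and Cdkn2a was low, with 0.174, 0.124 and 0.164 CPM in WT HFD and 1.19, 0.753 and 0.795 CPM in WT chow.

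Markers of tissue make-up differed between the same libraries, and their part in the result was not tested. Of 5 pan-epithelial genes 2 fell in WT HFD (Krt8 and Krt19), with summed levels of 8470 to 9220 CPM in WT HFD and 11100 to 11500 CPM in WT chow. Of 10 mature enterocyte genes 4 rose (29400 to 33100 CPM in WT HFD, 22700 to 22900 CPM in WT chow), and of 9 stem and crypt base genes 0 passed (309 to 379 CPM in WT HFD, 310 to 324 CPM in WT chow). Of 5 endothelial genes 3 rose (24 to 28.1 CPM in WT HFD, 15.1 to 19.6 CPM in WT chow). Of 5 tested proximal intestine genes 1 rose, Lct (184 to 331 CPM in WT HFD, 121 to 151 CPM in WT chow), 2 of the 5 had negative log2 fold changes, and none of the 6 on the list was at 0 in a whole group. The proximal score, a mean of centred log2 values, ran from 0.00158 to 0.67 in WT HFD and from -0.797 to -0.663 in WT chow. Of 4 distal ileum genes 2 rose as well, Fgf15 and Cubn (7040 to 8730 CPM in WT HFD, 6080 to 6340 CPM in WT chow). Of 6 Paneth cell genes 3 rose and 1 fell. Of 8 germinal centre B cell genes, markers of dividing lymphocytes, 1 fell (42.6 to 66.7 CPM in WT HFD, 47.4 to 55.7 CPM in WT chow). Of 10 smooth muscle genes 0 passed (37.6 to 74.3 CPM in WT HFD, 67.8 to 69.8 CPM in WT chow). With a proximal score or a muscle score as a covariate 0 members were called, and the median of the S phase members was 0.08 with the muscle score. The proximal score did not overlap between WT HFD and WT chow, so in that fit it cannot be told apart from diet.

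In KO mice Ccne1 and Plk1 fell with the high-fat diet. They were 2 of 37 members (5.41%), near the 4.76% of all tested genes that fell. Of the members 0 rose, against 3.44% of all tested genes. Medians of log2 fold changes were -0.12 over the mitosis members, -0.07 over the S phase members and 0.01 over all tested genes. Groups did not overlap, with KO HFD lower, for 6 members (Gins2, Ccne1, Ccnb2, Aurka, Plk1 and Birc5), which is 16.2% against 13.1% of all genes. DESeq2 called 5 lower (7.02% of all genes), adding Ccnb2, Cdc20 and Aurka.

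Ccne1 had 2.53, 2.19 and 1.99 CPM in KO HFD and 4.1, 3.48 and 3.96 CPM in KO chow (log2 fold change -0.78, SE 0.16, adjusted p = 0.0097). Plk1 had 13.3, 10.7 and 10.7 CPM in KO HFD and 15.6, 15 and 15.5 CPM in KO chow (log2 fold change -0.41, SE 0.10, adjusted p = 0.02). All KO HFD values of both genes lay below all KO chow values, and Ccne1 was called in 12 of 12 fits that left out 1 library. Ccne2 had a log2 fold change of 0.05 (SE 0.12). Ccne1 fell in both genotypes and Ccne2 in neither.

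Other mitosis genes had values in the same direction without passing. Ccnb2 had 10.4, 8.69 and 7.73 CPM in KO HFD and 14.2, 11.5 and 13.9 CPM in KO chow (log2 fold change -0.56, SE 0.18, adjusted p = 0.081). Cdc20 had 16.6, 11.5 and 11.1 CPM in KO HFD and 21.5, 15.3 and 20.0 CPM in KO chow (log2 fold change -0.53, SE 0.16, adjusted p = 0.063). Ccnb2's groups did not overlap and Cdc20's did, in KO HFD 1 and KO chow 2. Aurka had 9.14, 6.64 and 6.3 CPM in KO HFD and 10.6, 9.3 and 9.36 CPM in KO chow (log2 fold change -0.41, SE 0.14, adjusted p = 0.088). Kif20a and Aurkb, lower in WT HFD, had log2 fold changes of -0.12 and -0.09 in KO. Mki67 had 178, 163 and 151 CPM in KO HFD and 155, 152 and 143 CPM in KO chow (log2 fold change 0.13, SE 0.08), the highest of the members in this comparison.

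Of the S phase members, Gins2 had 18, 17.1 and 14.6 CPM in KO HFD and 18.8, 20.1 and 20.5 CPM in KO chow (log2 fold change -0.26, SE 0.09, adjusted p = 0.081), without overlap. Tyms, which makes thymidylate for DNA, had 8.03, 7.34 and 6.91 CPM in KO HFD and 9.62, 8.93 and 7.88 CPM in KO chow (log2 fold change -0.25, SE 0.14, adjusted p = 0.3). Pcna had 40.8, 37.9 and 39.2 CPM in KO HFD and 45.2, 35.6 and 39.6 CPM in KO chow, and E2f1 had 4.89, 3.83 and 2.6 CPM in KO HFD and 3.65, 4.4 and 3.53 CPM in KO chow. Both overlapped between diets, with log2 fold changes of -0.03 and -0.03. KO HFD 3 lay lowest of its group in both classes, with 13 of 16 S phase and 16 of 21 mitosis members below all KO chow libraries, against 2 and 4 in KO HFD 1.

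In the wider lists, 2 of 41 other replication genes fell in KO HFD, Gins4 (-0.39) and Wdhd1 (-0.30), near the 4.76% of all tested genes. Gins4 was called in 7 and Wdhd1 in 2 of 12 fits that left out 1 library. Of other mitosis genes, 0 of 52 other mitosis genes passed (median -0.10), where Cdca3 and Tacc3 had -0.35 and -0.39. Of the G1 drivers Ccnd3, cyclin D3, rose (0.42), and Ccnd1 had -0.38. Of the inhibitors Cdkn1c, which encodes the CDK inhibitor p57, and Ccng2, a cyclin of non-dividing cells, fell (-0.86 and -0.58). Of 12 fits that left out 1 library, Cdkn1c was called in 12, Ccnd3 in 9 and Ccng2 in 3. The count of 2 members was 1 without KO chow 3 or KO HFD 2, 4 without KO HFD 1, and 0 without both WT chow 1 and KO chow 3 or with only the KO groups in the fit. With the muscle score as a covariate it was 20. That score ran from 0.432 to 0.712 in KO HFD and from -0.361 to 0.003 in KO chow. Muscle content and diet therefore cannot be told apart in that fit. The 10 smooth muscle genes summed to 96.3 to 122 CPM in KO HFD and 52.6 to 67.2 CPM in KO chow, and 3 of them rose. Of 5 pan-epithelial genes 3 fell (7610 to 8750 CPM in KO HFD, 9210 to 11300 CPM in KO chow). Of 8 germinal centre B cell genes 2 rose, Bcl6 and Gcsam, and Fas fell (49 to 71.4 CPM in KO HFD, 40.7 to 52.3 CPM in KO chow). Of 9 stem and crypt base genes Smoc2 fell (286 to 348 CPM in KO HFD, 291 to 368 CPM in KO chow), and of 10 mature enterocyte genes Fabp2 and Apoa4 rose (23400 to 30800 CPM in KO HFD, 22000 to 23100 CPM in KO chow). The part of these in the result was not tested.

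Whether the diet response differed between genotypes was tested as an interaction. It passed for 0 of 37 members by edgeR (0.00568% of all genes) and 0 by DESeq2 (0.324%), and 4 members had an unadjusted p under 0.05, all higher (2.61% of all genes). These were Mki67, Bub1b, Cenpe and Cenpf, with differences between the log2 fold changes of 0.33, 0.33, 0.29 and 0.28 (adjusted p from 0.71 to 0.77). The difference was positive in 21 of 21 mitosis members (median 0.24) and in 7 of 16 S phase members (median -0.01). It was positive in 8632 of all 17602 tested genes. The members share the same libraries, so their directions are not independent observations. With the muscle score as a covariate the medians were -0.51 for mitosis and -0.52 for S phase members. That score was higher in every KO HFD library than in any other library, so this fit cannot tell muscle content from the interaction. All 10 smooth muscle genes had a positive difference (median 1.39), whose part in the members' values was not tested. Cenpe had 27.5, 24.7 and 24.9 CPM in KO chow and 27.8, 25.7 and 27 CPM in WT chow, and Cenpf had 31.6, 29.2 and 30.4 CPM in KO chow and 32.3, 33.4 and 33.3 CPM in WT chow. Cenpf was lower in every KO chow library, and Cenpe overlapped. Among S phase members the smallest p-values were those of Tyms (-0.28), Mcm3 (0.29) and Mcm5 (0.28). On HFD Mcm3 had 14.8, 13.1 and 11.8 CPM in KO and 17.4, 10.3 and 13.5 CPM in WT, overlapping between genotypes. Mcm5 had 21.1, 19.2 and 15.7 CPM in KO HFD and 22.8, 18.5 and 18.7 CPM in KO chow, overlapping between diets. Tyms had 9.26, 9.59 and 8.37 CPM in WT chow. The S phase median was 0.22 without WT HFD 1. Mybl2, which encodes B-MYB, and Ccnd1 had differences of 0.44 and 0.38, and Cdca2 and Espl1 0.58 and 0.47. Mcm10 and Gins4 had 0.30 and -0.38, and Cdkn2a and E2f8 2.11 and 0.50, none of them passing.

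Between KO and WT on the same diet, no member passed. On HFD 0 of 37 passed by edgeR (0.290% of all genes) and 0 by DESeq2 (1.64%). At an unadjusted p under 0.05 there were 5 lower in KO, all S phase (Mcm6, Pcna, Tyms, Ccne1 and Ccne2; 6.83% of all genes), and 1 higher, Cenpe (6.17%). The median log2 fold change was -0.16 over S phase members, with 15 of 16 negative, and 0.00 over mitosis members, with 10 of 21 negative. Of all tested genes 50.1% were negative. With 1 library left out, the S phase median ran from -0.24 to -0.02 and the mitosis median from -0.11 to 0.13.

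On HFD Ccne1 had 2.53, 2.19 and 1.99 CPM in KO and 3.45, 2.63 and 3.44 CPM in WT (log2 fold change -0.50, SE 0.16, adjusted p = 0.21), without overlap. Pcna had 40.8, 37.9 and 39.2 CPM in KO HFD and 51.1, 42.7 and 42.7 CPM in WT HFD (log2 fold change -0.21, SE 0.09, adjusted p = 0.34), also without overlap. Tyms had 8.03, 7.34 and 6.91 CPM in KO HFD and 11.6, 7.89 and 8.32 CPM in WT HFD (log2 fold change -0.32, SE 0.14, adjusted p = 0.36), and the groups overlapped. Ccne1 and Pcna were thus lower in every KO library, and WT HFD 1 was the highest library in Pcna and Tyms. Cenpe, the kinetochore motor, had 27.8, 28 and 25.7 CPM in KO HFD and 24.2, 22.8 and 22.6 CPM in WT HFD (log2 fold change 0.23, SE 0.07, adjusted p = 0.22), with KO higher and no overlap. Cenpf had 33.6, 34.6 and 31.1 CPM in KO HFD and 32.3, 28.2 and 28.5 CPM in WT HFD (log2 fold change 0.16, SE 0.07, adjusted p = 0.38). Cdk1 had 8.84, 7.82 and 7.12 CPM in KO HFD and 13.4, 8.04 and 8.54 CPM in WT HFD (log2 fold change -0.33, SE 0.18, adjusted p = 0.44). The groups overlapped for Cenpf and for Cdk1. Groups did not overlap, with KO lower, for Pcna, Gins1, Ccne1 and Ccne2 (8.70% of all genes), and with KO higher for Cenpe (9.27%).

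Of the wider lists on HFD, Gins4 and Clspn of replication had -0.24 and 0.35, Cit and Espl1 of mitosis 0.40 and 0.23, Mybl2 and Cdk4 of the G1 drivers 0.26 and -0.24, and Cdkn2a and E2f4 of the inhibitors 1.64 and 0.15. None passed. The 10 smooth muscle genes summed to 96.3 to 122 CPM in KO HFD and 37.6 to 74.3 CPM in WT HFD, and 2 rose. With the muscle score as a covariate 18 members were called. That score ran from 0.432 to 0.712 in KO HFD and from -0.777 to 0.119 in WT HFD. Muscle content and genotype therefore cannot be told apart in that fit. Of 9 stem and crypt base genes 8 had negative log2 fold changes (median -0.27) and Smoc2 fell (286 to 348 CPM in KO HFD, 309 to 379 CPM in WT HFD). Of 6 Paneth genes Lyz1 and Defa22 fell (median -0.54; 2190 to 2270 CPM in KO HFD, 2740 to 4020 CPM in WT HFD). Of 10 mature enterocyte genes Treh fell (median -0.31; 23400 to 30800 CPM in KO HFD, 29400 to 33100 CPM in WT HFD). The part of these cell types in the members' values was not tested.

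On chow 0 of 37 members passed by edgeR (0.125% of all genes) and 0 by DESeq2 (1.07%). All 37 had a negative log2 fold change, against 49.3% of all tested genes, and all 37 were read from the same libraries. The median was -0.24 over S phase members and -0.22 over mitosis members, and 0.00 over all tested genes. At an unadjusted p under 0.05 there were 9 lower (5.68% of all genes) and 0 higher (7.35%), and groups did not overlap for 21 members, with KO lower (12.1%).

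Kif20a had 9.97, 8.88 and 8.73 CPM in KO chow and 12.6, 12.4 and 12.9 CPM in WT chow (log2 fold change -0.46, SE 0.15, adjusted p = 0.26). Ccnb1 had 14, 9.96 and 10.9 CPM in KO chow and 15.5, 15.3 and 16.7 CPM in WT chow (log2 fold change -0.45, SE 0.16, adjusted p = 0.28). Foxm1 had 13.1, 14.9 and 13.8 CPM in KO chow and 16.2, 16.9 and 15.8 CPM in WT chow (log2 fold change -0.23, SE 0.09, adjusted p = 0.29). The groups overlapped in none of these. Rrm1, the large subunit of the enzyme that makes deoxynucleotides, had 24, 19.2 and 21 CPM in KO chow and 26.7, 28.5 and 28.1 CPM in WT chow (log2 fold change -0.38, SE 0.14, adjusted p = 0.31). Ccne1 had 4.1, 3.48 and 3.96 CPM in KO chow and 4.72, 5.19 and 5.19 CPM in WT chow (log2 fold change -0.39, SE 0.15, adjusted p = 0.31). Mcm3 had 13.8, 11.8 and 13.2 CPM in KO chow and 16.4, 15.8 and 17.4 CPM in WT chow (log2 fold change -0.35, SE 0.15, adjusted p = 0.34). The groups did not overlap in these 3 S phase genes either.

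On chow KO chow 1 was nearest to WT chow, with 9 of 16 S phase and 13 of 21 mitosis members below all WT chow libraries, against 13 and 20 in KO chow 2 and 14 and 19 in KO chow 3. In the wider lists 0 genes passed. Uhrf1 and Lig1 of replication had -0.35 and -0.26, Kif4 and Racgap1 of mitosis -0.39 and -0.43, Ccnd1 and Cdk6 -0.29 and 0.32, and E2f8 and Lin52 -0.38 and 0.32. Lists of blood cells were also lower on median without a call. The 8 B and plasma cell genes summed to 195 to 274 CPM in KO chow and 272 to 297 CPM in WT chow, and the 7 T cell genes to 19.9 to 32.0 CPM in KO chow and 33.7 to 38.1 CPM in WT chow. The 6 erythroid genes summed to 10.7 to 18.9 CPM in KO chow and 22.3 to 28.9 CPM in WT chow. All 6 Paneth genes had negative log2 fold changes (median -0.29; 2170 to 2300 CPM in KO chow, 2530 to 3020 CPM in WT chow). The proximal genes summed to 206 to 214 CPM in KO chow and 121 to 151 CPM in WT chow, and the proximal score was -0.94, 0.431 and 0.268 in KO chow and -0.782, -0.663 and -0.797 in WT chow. Their part in the values of the members was not tested.

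The size of the diet difference followed gene length among the mitosis members, described here without a test. Across these 21 genes, which share the same libraries, the Spearman correlation of exon length with the log2 fold change was 0.72 for KO HFD against KO chow and 0.75 for WT HFD against WT chow. It was 0.09 and 0.11 across the 16 S phase members, and 0.20 and 0.18 across 17542 tested genes with a length. The 7 longest mitosis members (5.39 kb and over) had median log2 fold changes of 0.07 in KO and -0.20 in WT. The 7 shortest (up to 4.06 kb) had -0.41 in KO and -0.52 in WT. Mki67, Cenpe and Cenpf are among the longest, and Ccnb2, Cdc20, Plk1 and Aurka among the shortest. For KO against WT the correlation over mitosis members was 0.48 on HFD and 0.10 on chow.

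**Figure D5:**
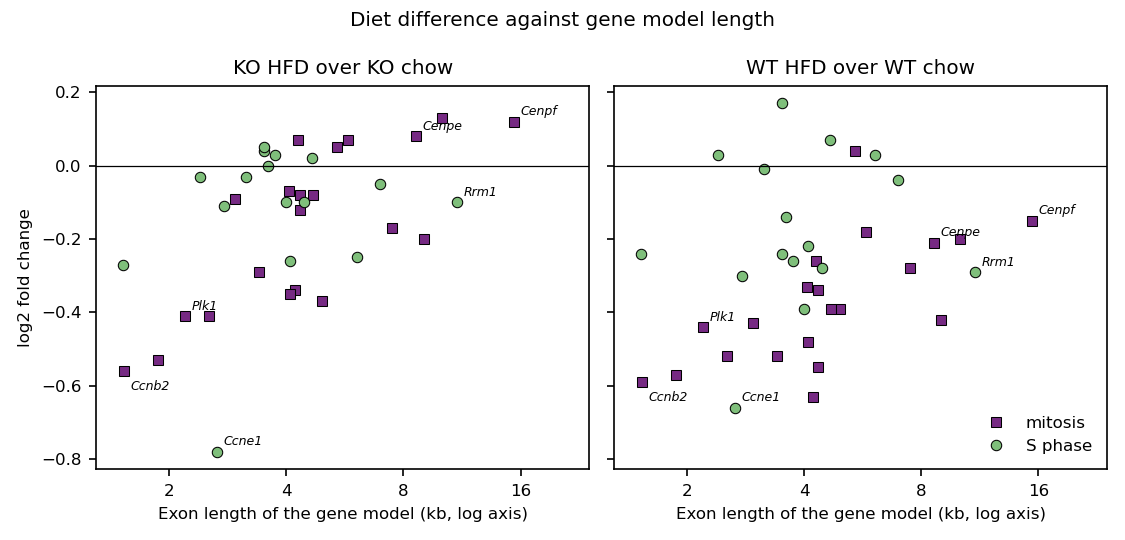
The x axis is the exon length of each gene model in kb (log axis) and the y axis the log2 fold change, for KO HFD over KO chow and WT HFD over WT chow. Squares, the mitosis genes, run upward with length in both panels (Spearman 0.72 and 0.75), while circles, the S phase genes, do not (0.09 and 0.11).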

How the data were processed

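Expected counts per gene, as deposited by the authors, came from 12 intestine libraries, made per the labels' protocols from total RNA with strand kept. The submitters' processing notes name Trimmomatic, STAR, Picard, RSEM and mm10. The sources used here do not give the annotation release or strand setting. RSEM divides reads among similar sequences. IDs were matched to symbols and positions through GENCODE vM21 (47224 of 47643 matched).

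Expected counts were rounded and tested with edgeR 4.0.16 in R 4.3.3 (quasi-likelihood F test, robust fit, TMM, filterByExpr), with 4 group means in a single fit. SEs were derived from the F statistic. The test was checked on simulated data. Alternatives were DESeq2 1.42.0, its size factors, other filters, only the groups compared, scores as covariates and each library left out.

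The members and lists were chosen with earlier results of these data known. Every member is named, with library values for Pcna, Mki67, E2f1 and the 3 members of each class with the smallest p per comparison, and the 2 genes with the smallest p from each wider list. The E2f1 promoter, planned for printing, is not shown because the transcript start that the RefSeq promoter table gives lies 466 bases inside the gene. Its window held none of the E2F words, so both S phase promoters shown are ones that hold them.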

Additional observations from a re-analysis of the deposited data

How the results depend on the processing

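Of the counts and medians of members under the alternatives, 302 stayed within 1.5 times the reported count or within the spread between replicates, and 28 moved. Of the other results, on named genes and promoter words, 366 stayed the same and 164 were weaker. Calls of named genes held in 6 (Ccng2 in KO) to 20 (Kif4 and Cdca3 in WT) of 21 alternatives, or 20 alternatives for Cdkn2a. No named gene changed the sign of a called difference. Members called for WT HFD against WT chow numbered 9, and 0 without both WT chow 1 and KO chow 3, with the proximal score or with the muscle score. Leaving out 1 library gave 0 to 21. For KO HFD against KO chow 2 were called, and 0 with only the groups compared or without both of those chow libraries, 1 with the proximal score, 20 with the muscle score and 5 by DESeq2, and 1 to 4 with 1 library left out. For KO HFD against WT HFD 0 were called, and 18 with the muscle score. With the muscle score the S phase and mitosis medians were -0.67 and -0.61 for KO HFD against WT HFD, -0.51 and -0.57 for KO HFD against KO chow, 0.08 and -0.13 for WT HFD against WT chow, and -0.52 and -0.51 for the interaction. The S phase median of the interaction ran from -0.09 to 0.22 with 1 library left out. The cause of these moves was not tested. The muscle score of KO HFD did not overlap that of KO chow or WT HFD, nor the proximal score of WT HFD that of WT chow. In those comparisons the score and the group difference cannot be told apart. Same-numbered libraries shared deviations with correlations of -0.111 to 0.143 over 18 pairs, and 5 of 12 libraries correlated best with their own number, so the numbers were not taken to pair samples. With the replicate number as a block, 15 members were called for WT HFD against WT chow and 3 for KO HFD against KO chow. Shares of members with a promoter word stayed within their 95% binomial intervals when only windows with a transcript start near the gene's 5′ end were counted. This alternative, chosen after seeing the data, kept 24 of the same 28 members. It could therefore hardly move the shares out of those intervals, and no conclusion is drawn from it. Low counts limit Gins1, whose lowest library held 38 counts.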
